A study of Mus musculus with 16 samples.

Results

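The 10 genes described here encode the structural proteins and the remodelling machinery of meiotic chromosomes: Sycp1, Sycp2, Sycp3, Syce1, Syce2, Syce3, Tex12, Hormad1, Hormad2 and Trip13. They were chosen by gene symbol, and all 10 were found among the 55414 gene identifiers of each deposited table. Testis RNA was sequenced in 16 libraries, taken at postnatal day 14 (P14) or at postnatal day 16 (P16). All mice, controls included, were dosed on P12 and on P13 with a tamoxifen solution of 10 mg per ml. This drug activates an inducible Cre recombinase in mice that carry one, so a floxed gene is deleted from that time on. The conditional knockout (cKO) of Ythdc2, an RNA helicase with a YTH domain that germ cells need for meiosis, was represented by 3 libraries at each stage. The groups called control held 2 libraries at each stage, and those called Cre control held 2 libraries at P14 and 4 at P16. The control libraries are named WT in their descriptions and column names, and the Cre controls are named Ctrl in their column names. The labels name neither the Cre line nor the alleles of any group. Which cells lost Ythdc2, and how the control types differ beyond these names, are therefore not known here. Nothing in the labels states that libraries came from separate animals, and p-values then measure only the spread between these libraries.

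During meiotic prophase each chromosome is folded along a protein axis. Sycp2 and Sycp3 build this axis together with cohesins, and Hormad1 and Hormad2 coat it while it is unpaired. When homologous chromosomes pair, Sycp1 dimers bridge the axes as transverse filaments, and Syce1, Syce2, Syce3 and Tex12 form the central element that locks the filaments in a zipper called the synaptonemal complex. Trip13 is an ATPase that strips the HORMA proteins from axes as they synapse. In male mice that lack any of the synaptonemal complex proteins, spermatocytes arrest in meiosis, and in the juvenile testis the first wave of spermatocytes reaches zygotene and pachytene at about the stages sampled here.

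Sequence upstream of the genes was read because all 10 members were lower in cKO than in control at P16, as described below. Against the Cre controls this did not hold for every member. The sequence is shown for the 5 members that hold the hexamer CACGTG. RefSeq promoter windows of build GRCm38.p6 matched all 10 members with 13 annotated starts, and the 250 bases before each start were searched on both strands for 5 motifs. The E-box CACGTG lay upstream of 5 of 10 members (Sycp1, Sycp3, Syce2, Tex12 and Hormad1), against 6.02% of the 32851 windows of all genes. The E2F element TTCCCGC lay upstream of 4 of 10 (Sycp3, Syce2, Tex12 and Hormad1), against 3.82% of windows. The element CNCCTCAG, which the meiotic initiators STRA8 and MEIOSIN are known to bind, was found at 2 of 10 (Syce2 and Hormad2), against 6.42% of windows. The MYB element AACNGNC was found at 6 of 10 against 27.7%, and the cAMP response element TGACGTCA at 0 of 10 against 1.55%. A member with several starts counted once if any of its windows held the motif, while each window counted once in the share of all windows. GC content of the members' 13 windows ran from 53.2% to 68.0% with a median of 60.4%, and the median of all windows was 52.4%, so the shares compare windows of different composition. These matches are letters in a window, and no binding was measured.

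The following 120-base stretches end at the base before the annotated start and are written 5′ to 3′ on the strand of the gene, with every match to any of the 5 motifs in capitals. They lie at chr3:102936101-102936220 (minus strand) for Sycp1, chr10:88459467-88459586 (plus strand) for Sycp3, chr8:84872138-84872257 (plus strand, the more downstream of 2 starts) for Syce2, chr9:50561269-50561388 (minus strand) for Tex12 and chr3:95559557-95559676 (plus strand) for Hormad1.
Sycp1: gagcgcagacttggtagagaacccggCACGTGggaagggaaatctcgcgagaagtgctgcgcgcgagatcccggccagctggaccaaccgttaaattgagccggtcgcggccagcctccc
Sycp3: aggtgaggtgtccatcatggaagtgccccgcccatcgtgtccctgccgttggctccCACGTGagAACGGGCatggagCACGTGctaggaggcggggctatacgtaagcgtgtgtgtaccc
Syce2: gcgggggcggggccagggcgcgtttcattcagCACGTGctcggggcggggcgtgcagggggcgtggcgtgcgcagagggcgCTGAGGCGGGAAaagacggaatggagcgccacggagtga
Tex12: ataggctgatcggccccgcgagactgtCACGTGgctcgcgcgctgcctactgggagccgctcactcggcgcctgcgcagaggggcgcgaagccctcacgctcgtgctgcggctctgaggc
Hormad1: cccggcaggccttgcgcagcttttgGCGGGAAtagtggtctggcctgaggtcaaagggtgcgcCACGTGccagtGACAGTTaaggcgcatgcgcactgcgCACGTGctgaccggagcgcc
Sycp3 and Hormad1 each carry 2 copies of CACGTG within the stretch. In Syce2 the hexamer starts 88 bases before the annotated start, and the run of capitals nearer to the start joins a match to CNCCTCAG with an overlapping match to TTCCCGC, both on the opposite strand. The TTCCCGC matches of Sycp3 and Tex12 start 147 and 145 bases upstream and lie outside the stretches shown. Hormad2 holds CNCCTCAG without CACGTG, and Trip13 holds none of the 5 motifs in its window.

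The libraries carried 14494867 to 27531529 reads on genes, and single members had from 289 reads (Tex12) to 20806 reads (Sycp1) in a library. Ribo-Zero components (first kit) had removed the ribosomal RNA from the control libraries and from the cKO libraries numbered 1 and 2. The NEBNext depletion kit (second kit) had done so for the Cre controls and for the cKO libraries numbered 3. The deposited values are reads divided by a size factor, and they are comparable within a table only. Ythdc2 itself, which checks the labels, had values of 2027 and 2262 in control and 658 and 753 in cKO at P14. At P16 it had 2666 and 2609 in control and 502 and 541 in cKO. The third cKO library had 323 at P14 and 226 at P16, below every Cre control (1352 and 1454 at P14, 1392 to 2633 at P16). The label check therefore held in all 6 cKO libraries, with Ythdc2 RNA still present in each.

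In bulk testis RNA, levels per length give an order of abundance. Expressed as reads per kilobase of merged exon, scaled to library size (TMM), the control P16 level was 386 for Sycp3 (SD 26.2, n = 2), 218 for Sycp1 (SD 6.99) and 177 for Hormad1. Sycp2 (79.0), Syce1 (76.6) and Syce3 (70.5) followed, and Syce2 (45.0), Tex12 (43.9), Hormad2 (16.9) and Trip13 (12.4) had the lowest levels. The library ranges of Sycp2 (75.2 to 82.8) and Syce1 (76.0 to 77.2) overlapped, and no other neighbours in this order overlapped, although Syce2 (44.8 to 45.3) and Tex12 (43.2 to 44.6) lay close together. The exon lengths come from another annotation release than the one behind the reads. In the first-kit cKO libraries at P16 the order was the same except that Tex12 (28.0 to 32.5) lay above Syce2 (22.9 to 24.2). The single second-kit cKO library at P16 had Sycp3 highest at 179.6, with Hormad1 (120.9) above Sycp1 (105.5) and Syce1 (46.5) and Syce3 (39.9) above Sycp2 (35.2). Syce2 (23.0) lay above Tex12 (20.9) in that library, and Trip13 (12.4) and Hormad2 were lowest. The group means of the second-kit Cre controls at P16 had the same order down to Tex12, with Hormad1 (132.1) above Sycp1 (129.6) and Sycp2 at 44.1. Only Hormad2 (16.6) and Trip13 (12.4) were reversed there, so this order was not particular to the cKO library.

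At P14, the day after the last tamoxifen dose, no member passed the test between cKO and control. None of the 10 passed the limma test (adjusted p under 0.05 after Benjamini-Hochberg over all genes, termed called here), against a background of 0.00579% called lower, a single gene of 17270, which was Ythdc2 itself. The call of Ythdc2 (log2 change −1.60) was itself lost without a filter on low values (adjusted p = 0.60, limma) and without a trend in the variance prior (adjusted p = 0.67, limma). It was also lost without control library 1 (−1.68) or 2 (−1.52). The lack of member calls at P14 therefore does not show that members were unchanged. At an unadjusted p under 0.05 there were 410 of 17270 genes and 1 of 10 members, and DESeq2 called 3 genes higher and 3 lower with 0 members among them. Log2 changes of the members ran from −0.16 for Syce2 to 0.08 for Sycp2, with standard errors of 0.05 to 0.15. Syce2 was the only member with both cKO libraries (1879 and 1906) below both controls (2134 and 2103), a pattern seen in 14.5% of all genes, and its mean in cKO was 89.3% of control.

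The 2 cKO libraries at P14 differed more from each other than the controls did. Library 2 exceeded library 1 for 9 of 10 members, by a median of 0.30 on the log2 scale, while the median gap between the control libraries was 0.05. Sycp1 had 14297 in cKO library 1 and 17584 in library 2, on either side of the controls at 15396 and 16904. Tex12 likewise had 727 and 1012, around the controls at 933 and 953. Trip13 went the other way, with 1080 in library 1 and 1015 in library 2, between its controls of 1106 and 997. The members' standard errors of 0.05 to 0.15 at P14 compare with 0.05 to 0.07 at P16.

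**Figure D1:**
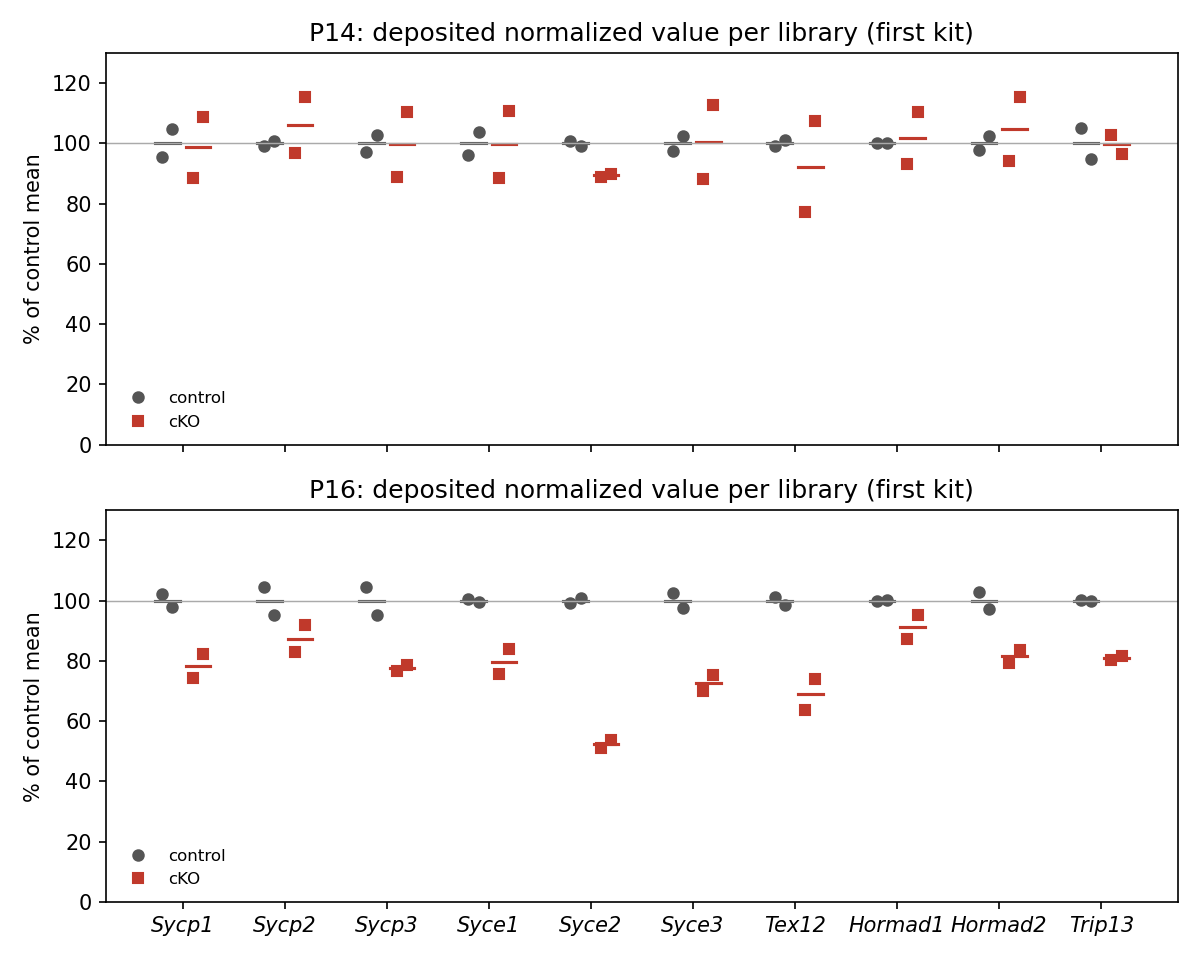
Deposited normalized value of each member in every library of the first kit, as percent of the control mean of the same stage (upper panel P14, lower panel P16; grey circles control, red squares cKO, 2 libraries each, short lines group means). At P14 the cKO libraries lie on both sides of the controls for most members, and at P16 all cKO points lie below all control points, with Syce2 lowest at a mean of 52.4%.

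At P16 every member was lower in the first-kit cKO libraries than in control. All 10 of 10 members were called lower (limma, Benjamini-Hochberg over 17986 genes), where 19.9% of all genes were called lower, and for all 10 both cKO libraries lay below both controls, which held for 35.4% of all genes. The median log2 change of the members was −0.34 and that of all genes was 0.00. DESeq2 called 9 of 10 (12.9% of all genes), and leaving out control library 1 left 8 called, without Sycp2 and Hormad1 (12.9% of all genes). A fit without a trend in the variance prior called 2, Syce2 and Syce3 (5.92% of all genes). From bulk RNA, fewer spermatocytes in the tissue and less RNA per spermatocyte cannot be told apart.

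The 3 largest reductions were in the central element genes Syce2, Tex12 and Syce3. Syce2, which with Tex12 forms the fibrous assembly at the midline of the complex, had values of 2282 and 2319 in control and 1175 and 1237 in cKO. This was a log2 change of −0.93 (SE 0.05, adjusted p = 9.3e-08, limma), with 52.4% of the control mean remaining. Tex12, its obligate partner, had 1174 and 1143 in control and 739 and 857 in cKO, a change of −0.54 (SE 0.07, adjusted p = 1.1e-04, limma) with 68.9% remaining. Both cKO libraries lay far below both controls for each of the pair.

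Syce3, which joins the transverse filaments to the central element, had 1038 and 986 in control and 708 and 761 in cKO, a log2 change of −0.46 (SE 0.07). Syce1, which links Sycp1 to the central element through Six6os1, had 2921 and 2888 in control and 2196 and 2435 in cKO, a change of −0.33 (SE 0.05). The cKO and control libraries did not overlap for either gene, with 72.6% of Syce3 and 79.7% of Syce1 remaining.

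The transverse filament gene Sycp1 had 20498 and 19667 in control and 14939 and 16553 in cKO, a log2 change of −0.35 (SE 0.05). The axis gene Sycp3 had 13249 and 12087 in control and 9704 and 9957 in cKO, a change of −0.36 (SE 0.05). An exon of Sycp3 overlaps Chpt1 on the other strand, and whether the counting used strand is not stated in the sources used here. Sycp2, the partner of Sycp3 in the axis core, changed less, with 12800 and 11670 in control, 10132 and 11240 in cKO, and a log2 change of −0.20 (SE 0.06, adjusted p = 0.0135, limma). Its higher cKO library lay just under its lower control library. The call was lost without control library 1 (−0.13) and also without a filter on low values (−0.20, adjusted p = 0.070, limma).

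Among the HORMA domain proteins, Hormad1 had the smallest change of all members. Its values were 7945 and 7962 in control and 6950 and 7584 in cKO, a log2 change of −0.13 (SE 0.05, adjusted p = 0.0395, limma). That call was lost in DESeq2 (−0.13, adjusted p = 0.084), without a filter on low values (−0.13) and without either control library (−0.13 each). It was also lost without cKO library 1, where the change itself was smaller at −0.07. Hormad2 had 1236 and 1168 in control and 952 and 1007 in cKO, a change of −0.30 (SE 0.06). Trip13, the ATPase that removes both, had 1115 and 1113 in control and 896 and 911 in cKO, also a change of −0.30 (SE 0.06). Hormad2 and Trip13 kept 81.5% and 81.1% of control, while Hormad1 kept 91.4%.

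Differences among members within a library do not depend on the scaling of that library. Relative to the mean log2 CPM (reads scaled to library size) of the other 9 members, Syce2 stood at −0.70 and −0.62 in the P16 controls and at −1.28 and −1.24 in the P16 cKO libraries 1 and 2, a difference of −0.60. Hormad1 differed the opposite way by this measure, with 1.30 and 1.36 in the controls and 1.60 and 1.62 in cKO, and Sycp2 differed by 0.22 in the same direction. With the median of the other members in place of the mean, the differences were −0.60 for Syce2, 0.80 for Hormad1 and 0.74 for Sycp2. That of Sycp3 was 0.03 with the mean and 0.57 with the median. Each such value depends on the other members, so with the mean the fall of Syce2 adds a little to the relative values of the rest. With the median, the middle member was Syce2 itself for Hormad1, Sycp2 and Sycp3, and Syce1 for Syce2. These median differences therefore compare single pairs of genes. Those of Hormad1, Sycp2 and Sycp3 include the fall of Syce2 in full and do not show a rise over the set. At P14 the first-kit difference of Syce2 was −0.16 with the mean.

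**Figure D2:**
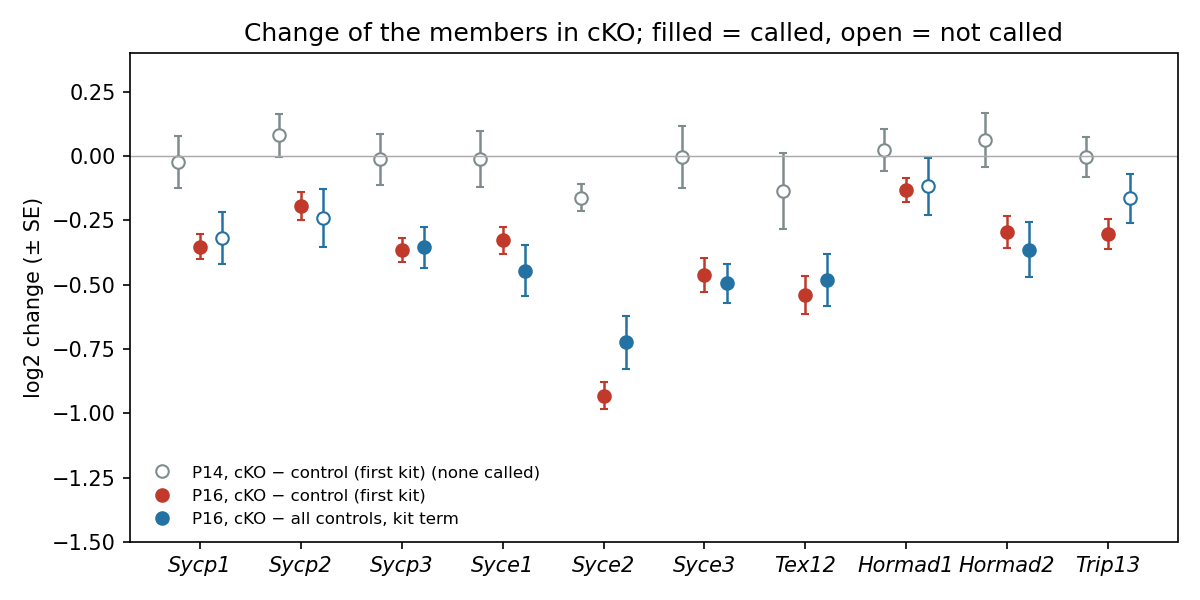
Log2 change of each member in cKO with its standard error: grey, P14 against control; red, P16 against control, both from the first kit; blue, P16 against both control types with the depletion kit as a term. Filled points were called and open points were not; Syce2 is lowest in all 3 fits, at −0.16, −0.93 and −0.72.

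The reduction at P16 was also measured over all 9 P16 libraries of both kits, with the kit as a term and both control types as a single arm. Control type and kit go together, so this fit cannot tell them apart. By this fit 6 of 10 members were called lower (limma on log2 CPM), against 7.86% of all genes. Syce2 changed by −0.72 (SE 0.10, adjusted p = 0.0036, limma), Syce3 by −0.49, Tex12 by −0.48, Syce1 by −0.45, and Sycp3 and Hormad2 by −0.36 each. The 4 members not called were Sycp1 at −0.32 (adjusted p = 0.057, limma), Sycp2 at −0.24, Trip13 at −0.16 and Hormad1 at −0.12. Leaving out single libraries gave 2 to 7 calls, with 2 when cKO library 1 was omitted (2.21% of all genes) and 3 when cKO library 3 (3.95% of all genes) or either control was omitted. Syce2 and Syce3 were called in each of these fits. The same fit at P14 called 0 members (limma), where 0.00529% of all genes were called lower, and edgeR called 0 members. At an unadjusted p under 0.05 there was 1 member, beside 457 of 18892 genes.

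Comparing the deposited tables that hold the Cre controls, 0 of 10 members were called at P14 and 0 of 10 at P16 (limma), where 0 of 18196 genes at P14 (0.00%) and 4.77% at P16 were called lower. At an unadjusted p under 0.05 there were 0 members at P14 and 1 at P16, beside 705 of 18196 and 7364 of 19200 genes. DESeq2 called 0 members at P14 and 1 lower at P16, where it called 2071 of 19536 genes lower. Of the 3 cKO libraries in each of these tables, 2 were made with the first kit and all Cre controls with the second. Members differed between libraries of the first and the second kit to unequal extents. Per the column names no sequencing run held libraries of both kits, so kit and run cannot be told apart. In the P16 table Sycp1 had 12236 and 13646 in the first-kit cKO libraries, 7341 in the second-kit cKO library and 7646 to 11111 in the Cre controls. Syce2 had 963 and 1019 in the first-kit and 885 in the second-kit cKO libraries, and Trip13 had 734 and 751 against 840, the opposite order. With cKO library 3 left out, kit, run and genotype cannot be told apart, and 6 members were then called higher at P14 (13.6% of all genes). At P16 4 were called higher (20.2% of all genes) and 1 lower (29.3% of all genes). The within-kit comparison is therefore given for each stage.

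Within the second kit at P16, the third cKO library lay below all 4 Cre controls for 8 of 10 members, against 30.3% of all genes. There is 1 cKO library, so no test was made. Syce1 had 1327 against 1685 to 2315 in the Cre controls (median 2037), a log2 difference from their mean of −0.59, with a standard deviation of 0.20 among the controls. Syce3 had 431 against 585 to 669 (−0.54, SD 0.10), and Syce2 had 885 against 1070 to 1311 (−0.47, SD 0.13). Hormad2 (−0.45), Tex12 (−0.41), Sycp3 (−0.35), Sycp2 (−0.30) and Sycp1 (−0.28) were also below every Cre control. Without Cre control library 1 the differences were −0.19 for Sycp2 and −0.17 for Sycp1.

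The 2 exceptions were Hormad1, with 4092 inside the Cre control range of 3574 to 5583 (difference −0.10, and 0.01 without Cre control library 1), and Trip13, with 840 inside 793 to 973. The Cre controls themselves were spread: library 2 was below the mean of the other 3 for 10 of 10 members, by a median of 0.28 on the log2 scale, and library 1 was above the mean of the others for 9 of 10, also by a median of 0.28. Per the column names, library 1 alone shared a sequencing run with the third cKO library. Against that library, chosen as a comparator after its values had been seen, the third cKO library was lower for 9 of 10 members, with a median difference of −0.58 and a range from −0.80 to 0.08. Syce1 had the lowest value of this range and Trip13 the highest.

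**Figure D3:**
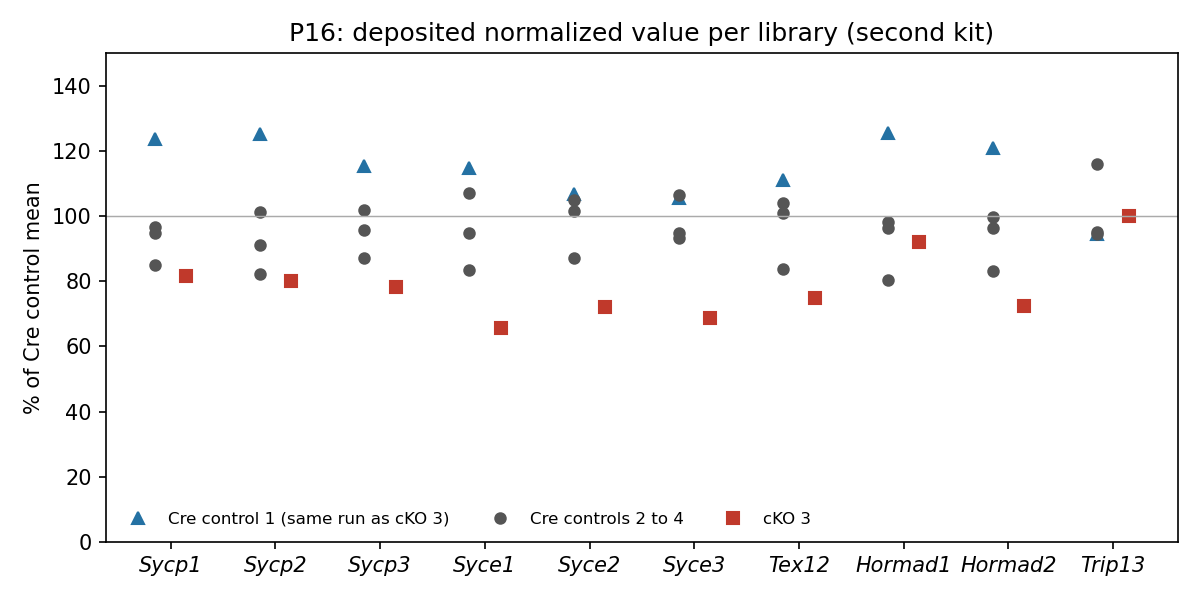
Deposited normalized value of each member in the P16 libraries of the second kit, as percent of the Cre control mean (triangles, Cre control library 1 of the same run as the cKO library; circles, Cre controls 2 to 4; squares, cKO library 3). The cKO square lies below all 4 controls for 8 members and inside the control range for Hormad1 and Trip13.

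At P14 the third cKO library lay below both Cre controls for 8 of 10 members, against 33.3% of all genes, with a median log2 difference of −0.27. Hormad1 had 2654 against 3457 and 3572, and Sycp1 had 6340 against 8529 and 7987, the largest differences at −0.40 and −0.38. Syce2 had 1270 against 1404 and 1305, a difference of −0.09 that was −0.04 without Cre control library 1 and −0.14 without library 2. Syce3 and Trip13 lay between the 2 controls. At this stage the first-kit cKO libraries lay on both sides of their controls for all members but Syce2 and Trip13, so the 2 kits gave different pictures at P14 and no test compared them.

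The extra loss of Syce2 relative to the other members did not appear in the second kit to the same size. Its value relative to the other 9 was −0.86 in the third cKO library at P16, against −0.84 to −0.66 in the Cre controls, a difference of −0.13. It became 0.13 when the median of the other members was taken in place of the mean. In these libraries that median was Syce1, so the 0.13 compares Syce2 with Syce1 alone and not with the set. At P14 the difference from the mean of the other 9 was 0.15. Trip13 stood out in these libraries, at −0.94 in the cKO against −1.64 to −1.07, a relative difference of 0.39, and Hormad1 was again relatively higher, by 0.27.

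**Figure D4:**
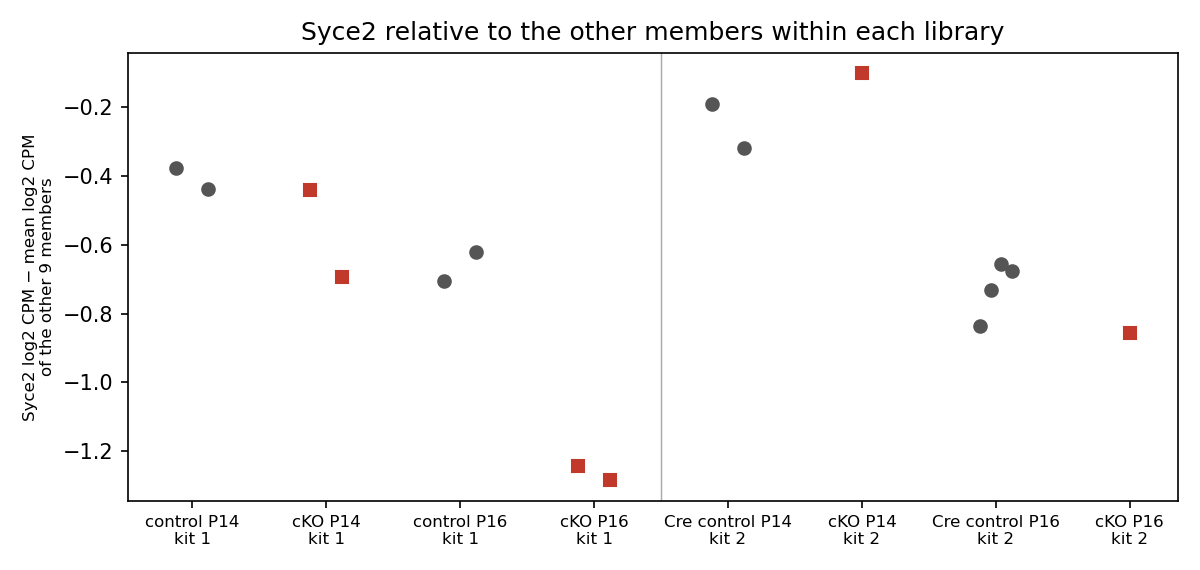
Log2 CPM of Syce2 minus the mean log2 CPM of the other 9 members in each of the 16 libraries, by group and kit (circles controls, squares cKO). In the first kit the P16 cKO libraries lie at −1.28 and −1.24, below the controls at −0.70 and −0.62; in the second kit the cKO value of −0.86 lies next to the lowest control at −0.84.

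The change from P14 to P16 shows how the members' RNA moves in the testis while the first wave of spermatocytes advances. The stage and interaction fits used 1 estimate of the spread shared by every group of the kit, cKO groups included. In the first-kit controls 4 of 10 members were called higher at P16 (limma on log2 CPM), where 13.7% of all genes were called higher. Syce1 rose by 0.57 (SE 0.10, adjusted p = 0.0031, limma), Sycp2 by 0.46, Hormad2 by 0.33 and Hormad1 by 0.25. Syce2 (0.02) and Trip13 (−0.01) stood near 0, and Syce3 (0.28), Sycp1 (0.22), Tex12 (0.20) and Sycp3 (0.18) were not called. Between 1 and 7 members were called when single libraries were left out. There was 1 without control P16 library 1 (6.8% of all genes) and 7 without either P14 cKO library (15.6% of all genes).

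In the cKO 0 of 10 members were called higher from P14 to P16 (limma and edgeR), against 14.2% of all genes by limma. An unadjusted p under 0.05 in either direction was found for 3 of 10, beside 7626 of 18581 genes. Syce2 fell by 0.77 on the log2 scale (SE 0.05, adjusted p = 1.5e-05, limma) and Trip13 by 0.34 (adjusted p = 0.0042), so 2 of 10 were called lower, against 16.5% of all genes. Without cKO P14 library 1 there were 6 called lower (12.6% of all genes). Without cKO P14 library 2 there were 3 called higher (16.1% of all genes) and 2 lower (13.2%). Syce2 was called in each of these fits.

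Cre controls of the second kit gave a separate look at the stage change. Syce1 rose by 0.68 (adjusted p = 0.010, limma) and Syce3 by 0.56 (adjusted p = 0.024, limma), 2 of 10 members against 9.36% of all genes. Trip13 fell by 0.45 (adjusted p = 0.037, limma), 1 of 10 against 2.08%. Sycp2 stood at 0.43, Hormad2 at 0.34, Tex12 at 0.30, Hormad1 at 0.25, Sycp3 at 0.14, Sycp1 at 0.03 and Syce2 at −0.22, none of them called. Leaving out single libraries moved Tex12 between 0.05 and 0.55, Hormad1 between 0.10 and 0.35 and Hormad2 between 0.21 and 0.42. It moved Sycp2 between 0.28 and 0.52 and Sycp3 between 0.04 and 0.21, and Sycp1 crossed 0 (−0.10 to 0.11). Tex12 was lowest without Cre control P14 library 1 and highest without P14 library 2. Hormad1, Hormad2, Sycp1, Sycp2 and Sycp3 were lowest without Cre control P16 library 1. Syce1 was the member called in both kits' controls. Stage and run are partly mixed here, since both P14 Cre controls and 1 of the 4 P16 Cre controls came from the same run. The call of Syce1 was lost without Cre control P14 library 1 (0.67, adjusted p = 0.054, limma). Syce3 was lost without that library or without Cre control P16 library 1 or 3. Trip13 was lost without Cre control P14 library 1 or without P16 library 1, 2 or 3.

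**Figure D5:**
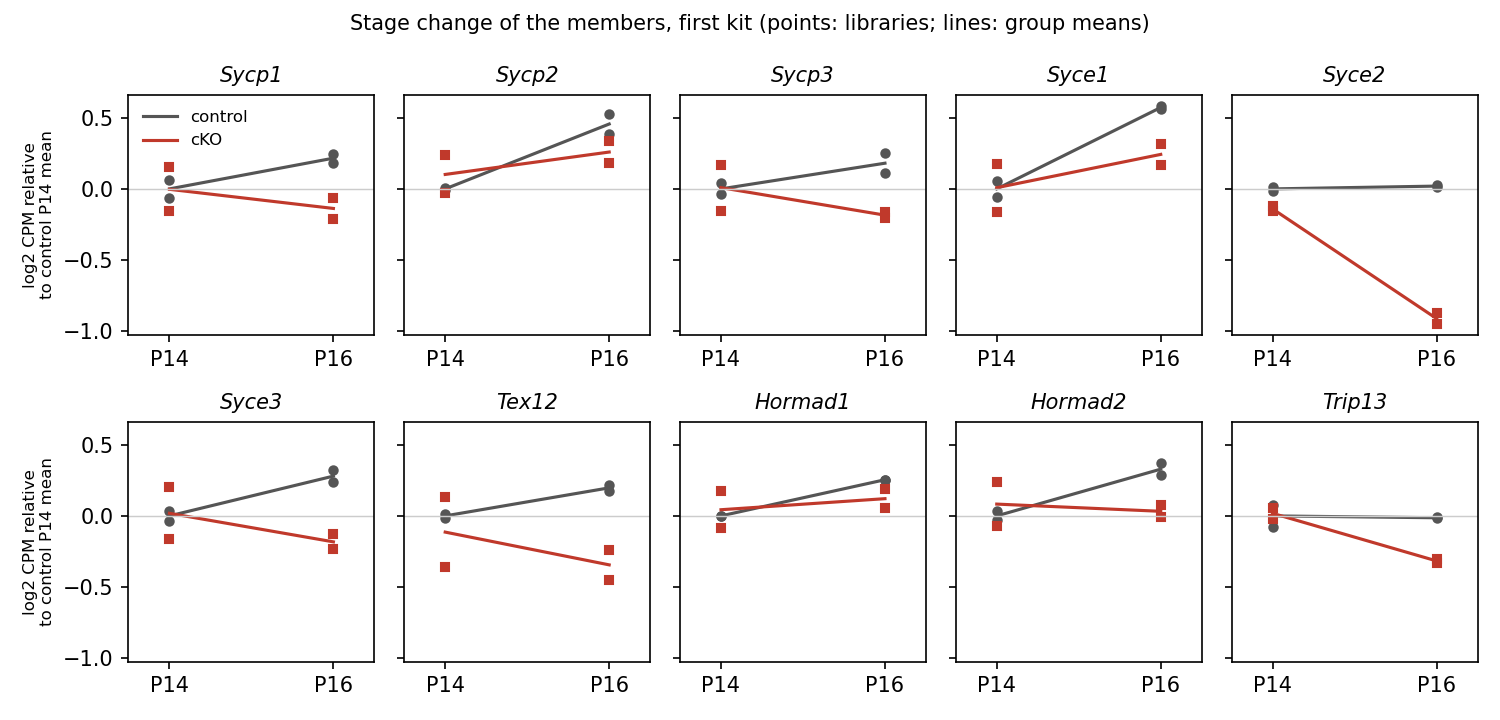
Log2 CPM of each member in the 8 first-kit libraries relative to its P14 control mean (grey circles control, red squares cKO, lines join group means). Syce2 is level in the controls and falls by 0.77 in the cKO, and for Syce1 and Sycp2 both lines slope upward, with a call in the controls only.

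The difference between the stages in the cKO effect was tested as an interaction over the 8 first-kit libraries. Syce2 was the 1 member of 10 for which the P16 effect was called lower than the P14 effect, by −0.79 (SE 0.07, adjusted p = 3.8e-04, limma), against 6.35% of all genes. The other 9 members ranged from −0.48 for Syce3 to −0.18 for Hormad1 and were not called. Leaving out cKO P14 library 1, which had the lower values for most members, gave 9 of 10 called against 10.8% of all genes, so the count for the other members rests on that library. Without it Syce3 stood at −0.64 and Tex12 at −0.649. Leaving out other single libraries made these differences smaller, to as little as −0.27 for Syce3, −0.15 for Tex12 and −0.015 for Hormad1. The effect on Ythdc2 RNA itself also differed between the stages, by −0.76 (adjusted p = 0.0059, limma). That call was lost without control P16 library 1 (−0.71).

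Genes with the same course over the 8 first-kit libraries were ranked by their root-mean-square distance from the median course of the members on the log2 CPM scale, over 11459 protein-coding genes. The closest non-members were Fam118a (0.032), Cenpq (0.033), Zfyve19 (0.038), Hmgb2 (0.039) and Rad18 (0.040). Of the members, Sycp1 (0.025), Syce3 (0.030) and Sycp3 (0.039) followed the median course most closely, and Syce2 (0.30) departed from it most. In the second kit, which was not used for the ranking, Cenpq (0.06) and Rad18 (0.05) stayed close to the members' course, while Fam118a (0.15), Zfyve19 (0.17) and Hmgb2 (0.15) were farther away. The members' own distances in the second kit ran from 0.050 for Sycp3 to 0.39 for Trip13, with Syce3 at 0.17, Syce1 at 0.24 and Syce2 at 0.26. The members lie within their own median, so their distances are smaller than those of outside genes by construction.

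RNAs of proteins that the members work with were compared in the same fit. Of 14 partners of the axis and of synapsis, 13 were called lower at P16 against control and 0 higher. In that fit 19.9% of all genes were called lower and 18.6% higher. The partners had a median log2 change of −0.50 beside −0.34 for the members. Rad21l, a meiotic kleisin cohesin subunit, changed by −1.59 (adjusted p = 2.5e-08, limma), and Iho1, which binds Hormad1 on unsynapsed axes to promote double-strand breaks, by −1.46 (adjusted p = 3.8e-08, limma). Sycp2l was the 1 partner not called. Of 18 recombination factors tested, 13 were called lower and 1 higher, with a median of −0.48. Mei1, needed for break formation, changed by −1.86, and Msh5, a crossover factor, by −1.24, whereas Mlh3, which acts later at crossovers, was 0.38 higher. Of 9 genes for the response to unsynapsed chromosomes, 8 were called lower, led by H2ax at −1.45 and Chek1 at −0.93. The fit without a variance trend called 7 of 14, 8 of 18 and 2 of 9 lower in these lists (5.92% of all genes) and 0 higher. With the kit term over all 9 P16 libraries, 7 of 14, 8 of 18 and 3 of 9 were called lower in these lists (7.86% of all genes) and 0 higher. Leaving out single libraries gave 5 to 9, 4 to 9 and 2 to 4 lower. All members changed less than Rad21l, Iho1, Mei1, Msh5 and H2ax in the first kit. These genes were named for the largest falls of their lists in this same comparison, so that order largely follows from how they were picked.

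Markers of the cells that could be in the tissue moved at P16 as well, and their part in the members' change was not tested. Spermatogonial markers were called lower for 11 of 12 (19.9% of all genes), with a summed value of 23815 to 23919 in control and 17568 to 17868 in cKO. Markers of pachytene and later spermatocytes were called higher for 6 of 10 and lower for 1, with sums of 51196 to 51744 in control and 56260 to 62278 in cKO. Zpbp (1.41) and Pgk2 (0.86) had the largest rises among them, and Ccna1 (−0.84) was the 1 called lower. Spermatid markers summed to 4.14 to 7.76 over all 4 libraries, with Prm2 and Tnp2 at 0, so 0 of 5 could be tested. Somatic markers were called higher for 7 of 10 (Sertoli cells), 2 of 5 (Leydig cells), 6 of 6 (macrophages), 1 of 4 (peritubular cells) and 2 of 3 (endothelium), and none was called lower, where 18.6% of all genes were called higher. Their sums in control and cKO were 97104 to 102619 and 117263 to 129910 for Sertoli cells, 4147 to 4393 and 4825 to 5561 for Leydig cells, and 2784 to 2897 and 3770 to 3896 for macrophages. Peritubular sums were 6902 to 7454 and 7520 to 8938, and endothelial sums 2343 to 2528 and 2775 to 2900. With the kit term the calls were 2 lower of 12 for spermatogonia (7.86% of all genes) and 1 higher of 10 for pachytene markers (5.92% of all genes). On the somatic side, with 5.92% of all genes called higher, they were 4 higher of 10 for Sertoli cells, 4 of 6 for macrophages and 0 for each of the other somatic lists. The fit without a variance trend called 4.12% of all genes higher and 5.92% lower. It called 5 spermatogonial markers lower, 2 pachytene markers higher and 1 lower, 1 Sertoli and 4 macrophage markers higher, and 0 in the other somatic lists. Against the first-kit controls, leaving out single libraries gave 1 to 4 calls for Leydig cells, 1 to 2 for peritubular cells and 0 to 2 for endothelium. With the kit term it gave 0 to 4 for spermatogonia, 1 to 2 for pachytene markers, 1 to 5 for Sertoli cells and 0 to 5 for macrophages.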

How the data were processed

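The 10 members and all gene lists were chosen with earlier results of these data known. The authors deposited 4 tables of normalized counts, a signal equal to reads per gene divided by a library size factor. Per the submitters' processing notes, Trim Galore, STAR, HTSeq, DESeq2 and build GRCm39 (mm39) were used, with no versions or roles given. Whole reads were recovered (tolerance 0.01 read) for 100% of values, and the 4 summary rows were left out. Gene names came from GENCODE M21, which named 52081 of 55414 identifiers. Its exons gave the merged exon lengths. Shoc1, of the recombination list, was not matched, and Spo16 had values too low to test.

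The main test was two-sided limma 3.58.1 (trend, R 4.3.3) on log2(deposited value + 1), for genes with at least 10 in at least 2 libraries of a table. Fits over several tables used log2 CPM (TMM, prior count 1) of recovered reads, with at least 10 reads in at least 2 libraries. A fold change on the first scale understates changes of low genes. All 10 members passed these filters. P-values were adjusted by Benjamini-Hochberg over all genes, and calls had an adjusted p under 0.05. Named genes were all members, Ythdc2, the 5 closest in course, and the called list genes with the largest changes, others being named after their values were seen. edgeR 4.0.16, DESeq2 1.42.0, other pseudocounts, filters and scalings, a replicate block and leaving out libraries were alternatives. On the recovered reads of the P16 table edgeR called 3536 genes lower and 3455 higher. Fits were tested on simulated data.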

Additional observations from a re-analysis of the deposited data

Results flagged for a closer look

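Syce2 showed an effect of the knockout that differed between the stages. Its log2 change in cKO against control at P16 was lower than that at P14 by −0.79 in an interaction test over the 8 first-kit libraries (adjusted p = 3.8e-04, limma), and the 2 cKO libraries were below both controls at both stages.

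Ythdc2, the targeted gene, also had an effect that differed between the stages, by −0.76 (adjusted p = 0.0059, limma). Its values at P14 were 658 and 753 in cKO and 2027 and 2262 in control. At P16 they were 502 and 541 in cKO and 2666 and 2609 in control. These values were scaled separately for each stage and compare within a stage only. The call was lost without control P16 library 1 (−0.71).

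Trip13 in Cre control library 4 at P16 stood apart from the other 3 Cre controls, with 973 against 793 to 800. The gap to the nearest library was 0.963 of the whole range. It was the 1 library so placed among 11 genes checked in that group of 4, and chance places about 1 in 20 so. Without this library the third cKO library differed from the Cre controls by 0.08 for Trip13.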

How the results depend on the processing

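Against control at P16, the members' count of 10 called lower was 8 to 10 in every alternative but a fit without the variance trend, which called 2, and 8 to 10 when single libraries were left out. Syce2 was called in all of them, with −0.97 to −0.895. No member changed direction in this comparison, with the kit term, or in the interaction. With the kit term at P16, leaving out single libraries gave 2 to 7 called lower, and for the interaction 1 to 9. For P16 minus P14, leaving out single libraries gave 1 to 7 called higher in control. It gave 0 to 3 higher and 2 to 6 lower in cKO, and 0 to 2 higher and 0 to 1 lower in Cre control. Against Cre control, DESeq2 and a pseudocount of 10 each called 1 member lower at P16, beside 2071 of 19536 and 1994 of 19200 genes. Leaving out single libraries gave 0 to 6 called higher at P14, and 0 to 4 higher and 0 to 1 lower at P16. The cause was not tested, except that fewer libraries entered the fits that left any out.

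Directions turned for values near 0. In the control stage change, leaving out single libraries gave −0.00312 to 0.0198 for Syce2 and −0.100 to 0.0474 for Trip13. In the Cre control stage change it gave −0.104 to 0.110 for Sycp1, and the RLE scaling of edgeR gave −0.000438 for that gene.

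A replicate block called 6 members higher and 1 lower at P14 against Cre control, beside 2876 and 4090 of all 18196 genes. No P14 Cre control shares the number of the third cKO library, so that library does not enter this comparison. Kit, run and genotype can then not be told apart in these calls. The block left 10 called lower at P16 against control. Same-numbered libraries share only a number: their deviations correlated with r = 0.20 at P14 and 0.08 at P16 in the first-kit tables. The members had at least 289 reads in each library, and most groups of a fit hold 2 to 4 libraries.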
